A study of Mus musculus with 16 samples.

Results

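The sirtuins are the mammalian relatives of yeast Sir2, encoded in the mouse by Sirt1 to Sirt7. The rows carrying these symbols were taken from a table of 17737 genes, and all 7 members were found. They were measured by RNA sequencing in the ventricles of 16 hearts, with 4 animals on each of 4 diets. All animals were male C57BL/6 mice, 6 weeks old at the start, and each library came from the lower ventricles of 1 animal after 6 months of feeding. Chow was a standard rodent diet. NIA and UW were 2 primate diets, and mNIA was the NIA diet with its sucrose and fat set to those of UW. No group carried a genetic change, and food was freely available to every group. The library codes do not spell the diets of the titles: they are CC for chow, MNC for NIA, NC for UW and UC for mNIA. Read by letter, MNC could stand for the modified NIA diet, NC for NIA and UC for UW, which the sources used here do not settle. A comparison of a single primate diet rests on the titles, while the mean of the 3 primate diets against chow does not depend on which of them is which.

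Sirtuins use NAD to remove acetyl or other acyl groups from lysines of proteins, and some transfer ADP-ribose. Because they consume NAD, their activity is tied to the metabolic state of the cell, and they have long been studied in diet, ageing and heart muscle. SIRT1, SIRT6 and SIRT7 are mainly nuclear, SIRT2 is mainly cytosolic, and SIRT3, SIRT4 and SIRT5 are mitochondrial. Transcript levels say nothing of enzyme activity or NAD supply, which were not measured.

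Library sums ran from 2278223 estimated counts in NIA replicate 4 to 63005361 in NIA replicate 2, and the other 14 lay between 3143343 and 6583503. The tissue label was checked on 12 cardiomyocyte markers, including Myh6, Actc1 and Tnnt2. All 12 were tested, and their summed level was 63400 to 144000 CPM (counts scaled to the size of the library) in the 16 libraries. Of 6 skeletal muscle markers 4 were found, summing to at most 3.9 CPM, and of 6 adipocyte markers 3, summing to at most 0.67 CPM. Of 5 atrial markers 3 were found, summing to 65.4 to 226 CPM. In 4 libraries (Chow 3, NIA 1, NIA 4 and mNIA 2) the quality weight given by limma was under 0.5, between 0.16 and 0.36 against 0.58 to 2.89 elsewhere. These libraries hold several of the extreme sirtuin values given here.

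On mm10, as placed in the deposited table, Sirt1 lies on chromosome 10 from 63319005 to 63339036 and Sirt6 on the same chromosome from 81621786 to 81627609. Sirt7 lies on chromosome 11 from 120618371 to 120625015. Sirt2 and Sirt3 are both on chromosome 7, from 28766752 to 28788666 and from 140863663 to 140882310. Sirt4 is on chromosome 5 from 115478010 to 115484485, and Sirt5 on chromosome 13 from 43370716 to 43395204. Sirt2 and Sirt5 are on the forward strand and the other 5 on the reverse strand. In the GENCODE annotation, several share exons with a neighbour. Sirt3 shares 418 exon bases with Ric8a and 342 with Psmd13, a proteasome subunit gene whose start is 341 bases away on the other strand. Sirt7 shares 124 with Mafg on its own strand, and Sirt2 shares 42 with Nfkbib on the other. Whether strand was used in counting is not given in the sources used here, so reads in these stretches cannot be assigned with certainty.

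Upstream sequence free of annotated exons is shown for 3 members. They are Sirt1, and Sirt2 and Sirt5, whose levels had the highest Pearson correlation of any pair of sirtuins. The outermost GENCODE start of Sirt1, at 63381704, lies 739 bases head to head with Dnajc12. The sequence shown for Sirt1 lies before another start, the RefSeq start at 63339035, which is not head to head with Dnajc12 at that distance. Sequences are from RefSeq on GRCm38.p6, written 5′ to 3′ along the gene, and cover chr10:63339051-63339285 on the reverse strand for Sirt1, and chr7:28766641-28766734 and chr13:43365285-43365495 on the forward strand for Sirt2 and Sirt5. Capitals mark matches, on either strand, to the E-box CACGTG, the GC box GGGCGG, the CCAAT box and the estrogen-related receptor motif AAGGTCA.
Sirt1: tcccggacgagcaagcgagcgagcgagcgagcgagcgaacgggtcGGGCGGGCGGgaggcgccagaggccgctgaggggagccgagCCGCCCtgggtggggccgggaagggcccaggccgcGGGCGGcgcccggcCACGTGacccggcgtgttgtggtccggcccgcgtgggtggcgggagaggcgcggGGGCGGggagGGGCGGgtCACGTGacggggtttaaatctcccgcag
Sirt2: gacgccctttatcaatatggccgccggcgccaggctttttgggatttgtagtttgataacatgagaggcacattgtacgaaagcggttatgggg
Sirt5: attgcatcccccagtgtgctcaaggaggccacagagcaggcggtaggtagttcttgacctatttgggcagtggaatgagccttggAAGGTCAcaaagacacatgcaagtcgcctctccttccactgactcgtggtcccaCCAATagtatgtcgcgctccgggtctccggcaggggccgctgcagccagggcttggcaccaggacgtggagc

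The Sirt1 stretch held 2 E-boxes, 115 and 43 bases before the start, and the window of 250 bases held 6 GC boxes. E-boxes of these letters were in 6.0% and GC boxes in 32.7% of the 32851 mouse promoter windows of that length. The Sirt5 stretch held AAGGTCA 165 bases before the start, found in 4.1% of windows, and a CCAAT box, found in 33.8%. Outside the stretches shown, the Sirt5 window held a GC box at 36 bases. The Sirt2 window held 2 CCAAT boxes, at 216 and 165 bases, and a GC box at 187. Of the other letters searched, the ETS core CCGGAAG (6.9% of windows) was before Sirt3, Sirt6 and Sirt7, and the NRF1 core GCGCATGCG (1.4%) before Sirt6 and Sirt7. The TATA box TATAAA (12.4%) was in none of the windows of the 7 genes. These matches are descriptions of sequence, and the motifs were chosen after the sequences had been read.

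Sirt2 was the most abundant sirtuin, at 85.6 ± 15.7 CPM (SD, n = 16), and made up 34.3% to 53.8% of the family's summed CPM. To compare genes, levels were divided by the length of the longest coding transcript. On that scale Sirt2 was at 40.4 CPM per kilobase, Sirt3 at 19.3, Sirt5 at 13.3, Sirt7 at 7.31, Sirt4 at 6.25, Sirt1 at 3.95 and Sirt6 at 2.93. Of the 6 pairs of neighbours in this order, 5 differed beyond the spread over libraries in a sign-flip permutation test with Benjamini-Hochberg adjustment. Sirt2 exceeded Sirt3 by 1.09 ± 0.50 (SD) on the log2 scale in 16 of 16 libraries. Sirt7 and Sirt4 were the pair that did not differ beyond it, with a mean log2 difference of 0.10 ± 0.61, Sirt7 higher in 10 of 16 libraries and an adjusted permutation p of 0.52. The order was the same on chow, NIA and UW, and Sirt4 stood above Sirt7 on mNIA. It depends on the length used. With the length of all merged exons, Sirt5 stood above Sirt3 and Sirt7 came sixth. There, 4 of the 6 pairs of the first order differed in the same direction, and the neighbours of the new order were not tested. With the median coding transcript the order held and all 6 differed.

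**Figure D1:**
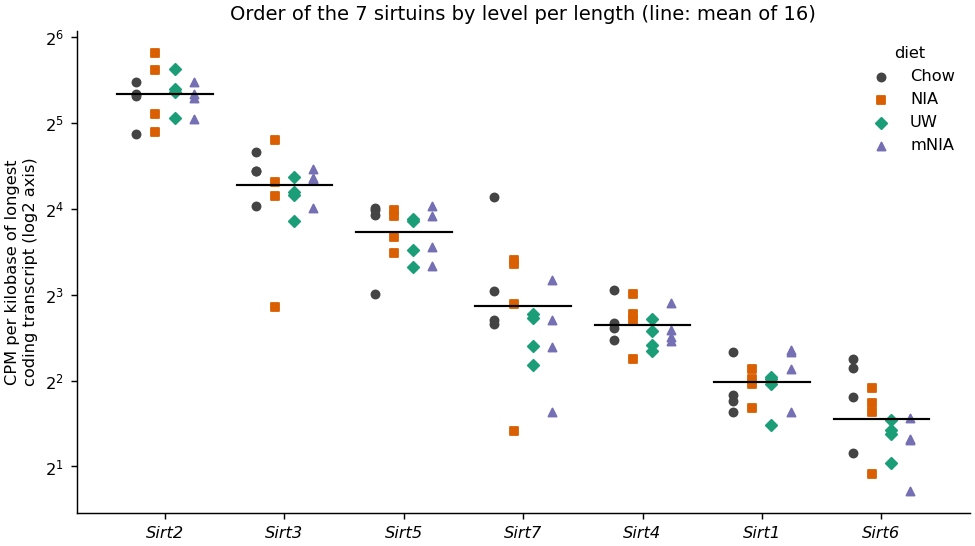
Level per length of each sirtuin in each library, in CPM per kilobase of the longest coding transcript on a log2 axis, with points coloured by diet and a line at the mean of 16. Sirt2 is above Sirt3 in all 16 libraries, while Sirt7 spreads across the range of Sirt4.

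No sirtuin passed an adjusted p of 0.05 in any of the 8 comparisons made with edgeR's quasi-likelihood test. The share of all 13381 tested genes that passed was 0.00% for NIA, for UW and for the mean of the primate diets against chow, 0.00747% for mNIA against chow, 0.00% for each of the 3 comparisons between primate diets, and 0.00% for any diet difference. At an unadjusted p under 0.05, Sirt6 was the 1 sirtuin counted, in mNIA against chow (1.38% of all genes) and in the mean of the primate diets against chow (2.19%). None was counted in NIA against chow (8.70%), UW against chow (2.35%), UW against NIA (13.9%), mNIA against NIA (8.91%), mNIA against UW (0.986%) or any diet difference (6.88%). For 0 sirtuins did the libraries of the groups separate, against 3.23% of all genes for NIA, 4.45% for UW, 2.16% for mNIA and 0.0897% for their mean against chow. Between primate diets the share of all genes was 6.35% for UW against NIA, 2.35% for mNIA against NIA and 1.43% for mNIA against UW. A p above the threshold does not show that levels were equal: over the 3 primate diets against chow, the 95% intervals of the 7 members reached from -1.53 to 0.66 on the log2 scale. The 3 comparisons with chow share its 4 libraries. In ventricle RNA, fewer cells of a type and less RNA per cell cannot be told apart.

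**Figure D2:**
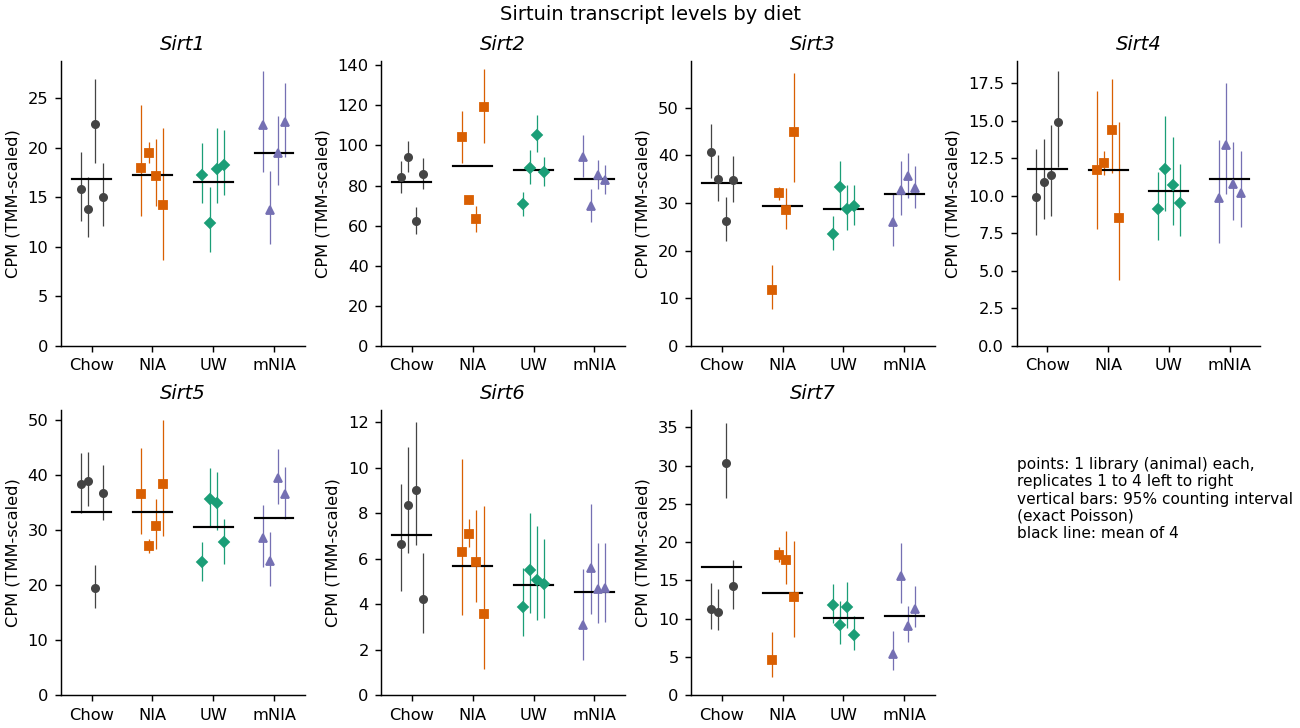
CPM of each sirtuin in each library, 4 animals per diet with replicates 1 to 4 from left to right, exact Poisson 95% counting intervals as bars and the mean of 4 as a line. The diets overlap for every member, Sirt7 in Chow 3 stands at 30.4 CPM, and Sirt3 in NIA 1 at 11.7 CPM.

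Among the nuclear sirtuins, Sirt1 encodes the family's best-studied protein deacetylase, whose targets include p53, FOXO factors and PGC-1α. It was at 15.8, 13.8, 22.4 and 15 CPM in Chow 1 to 4 and at 18.0, 19.5, 17.2 and 14.2 in NIA 1 to 4. On UW it was at 17.3, 12.4, 17.9 and 18.3, and on mNIA at 22.3, 13.7, 19.5 and 22.6. The 4 diets overlapped throughout, and mNIA held both the highest mean (19.5 ± 4.14) and a library near the bottom. The mean of the primate diets differed from chow by 0.09 ± 0.17 (log2, SE; 95% interval -0.27 to 0.45, adjusted p = 0.948), and by 0.01 without Chow 2 or 0.26 without Chow 3. The widest gap between diets for Sirt1 was mNIA over UW, at 0.24 ± 0.21 with an adjusted p of 1.

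Sirt6 encodes a chromatin deacetylase that acts on histone H3 and is known for DNA repair and control of glycolytic genes. It was the least abundant member, at 5.53 ± 1.65 CPM over 16 libraries. Its values were 6.64, 8.35, 9.03 and 4.22 CPM on chow, 6.29, 7.11, 5.86 and 3.56 on NIA, 3.89, 5.5, 5.06 and 4.9 on UW, and 3.1, 5.61, 4.68 and 4.73 on mNIA. Thus 3 chow libraries lay above every UW and mNIA library, and Chow 4 lay among them. The log2 difference from chow was -0.63 ± 0.28 on mNIA (95% interval -1.21 to -0.05, adjusted p = 0.983), -0.55 ± 0.27 on UW (adjusted p = 0.977) and -0.22 ± 0.27 on NIA (adjusted p = 0.858). For the mean of the primate diets it was -0.47 ± 0.22 (95% interval -0.92 to -0.01, adjusted p = 0.938). Without Chow 3 these became -0.49 on mNIA and -0.33 for the mean, with unadjusted p of 0.108 and 0.185. Without Chow 4 they became -0.81 and -0.65, with unadjusted p of 0.00849 and 0.00889 and adjusted p of 0.991 and 0.98. Depth limits this gene: apart from NIA 2, with 524 counts, it had at most 52 counts in a library, and its 5 counts in NIA 4 give a 95% counting interval of 1.15 to 8.3 CPM.

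Sirt7 encodes a nucleolar deacetylase tied to ribosomal RNA transcription, and mice lacking it are known for heart disease. It varied most of the 7, from 4.61 to 30.4 CPM (a 6.59-fold range, coefficient of variation 48.4%), and its dispersion stood at the 86.8 percentile of tested genes. It was at 11.3, 10.9, 30.4 and 14.2 CPM on chow, 4.61, 18.3, 17.7 and 12.8 on NIA, 11.8, 9.17, 11.5 and 7.87 on UW, and 5.36, 15.6, 9.05 and 11.3 on mNIA. Chow 3 stood far above the other chow libraries, and its counting interval of 25.8 to 35.6 CPM held none of them. The NIA libraries split between 1 at 4.61 and 3 at 12.8 or more. The log2 difference from chow was -0.72 ± 0.38 on UW (adjusted p = 0.977) and -0.68 ± 0.39 on mNIA (adjusted p = 0.983), and for the mean of the primate diets -0.55 ± 0.30 (adjusted p = 0.938). Without Chow 3 it was -0.27 on UW, -0.23 on mNIA and -0.09 for the mean, and the difference of NIA from chow turned from -0.24 to 0.22.

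Between primate diets, Sirt7 was lower on UW than on NIA by a log2 difference of -0.48 ± 0.39 (adjusted p = 0.63) and on mNIA by -0.44 ± 0.39 (adjusted p = 0.78). These values changed with the weight given to single libraries. Leaving out 1 library moved the UW value to -0.27 (without NIA 2) or -0.76 (without NIA 1), and the mNIA value to -0.23 or -0.74 without the same libraries, to -0.28 without mNIA 1 or to -0.73 without mNIA 2, with no call. Without the 4 libraries of low quality weight, which leaves 2 NIA libraries, Sirt7 was lower than on NIA by -0.82 on UW (adjusted p = 0.0267) and by -1.04 on mNIA (adjusted p = 0.00689). In these fits 11.8% and 23.1% of all tested genes passed, so 1 of 7 sirtuins is near or below the share of all genes. With limma-voom and quality weights the values were -0.81 (adjusted p = 0.0551) and -0.86 (adjusted p = 0.0377), and 14.8% of all genes passed in the latter comparison. Leaving out such libraries takes away NIA 1, the lowest Sirt7 value, and narrows the spread by construction.

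**Figure D3:**
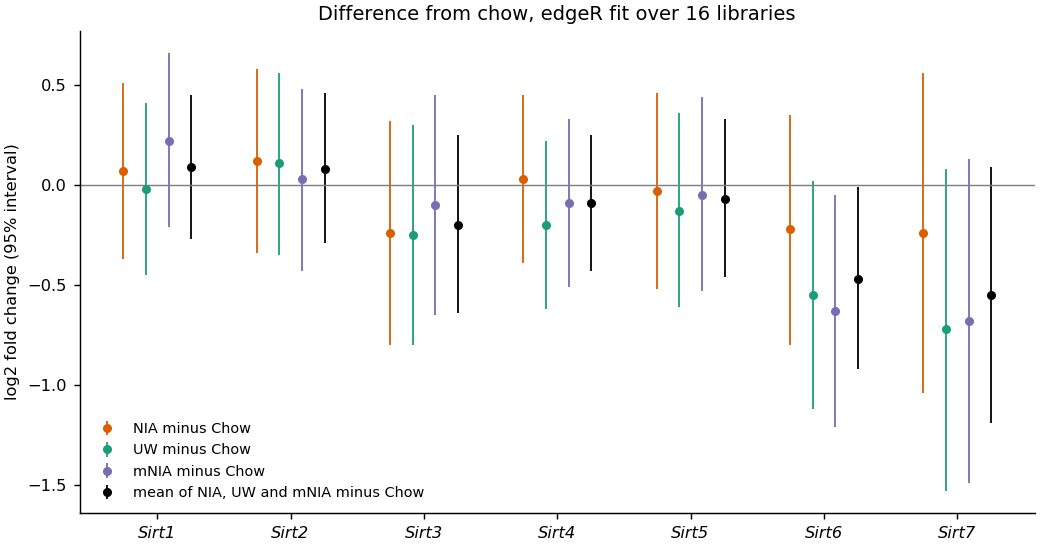
Log2 fold change of each sirtuin from chow with its 95% interval, for NIA, UW, mNIA and their mean, from the edgeR fit over 16 libraries. The intervals of Sirt6 for mNIA (-1.21 to -0.05) and for the mean (-0.92 to -0.01) leave out 0, and all other intervals cross it.

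Sirt2, the mainly cytosolic member, deacetylates tubulin and other proteins. It was at 84.1, 94.2, 62.2 and 85.8 CPM on chow, 104, 72.8, 63.1 and 119 on NIA, 70.7, 89.0, 105 and 86.8 on UW, and 94.3, 69.7, 85.5 and 82.9 on mNIA. The lowest library of each diet lay between 62.2 and 70.7 CPM and the highest between 94.2 and 119, so the diets overlapped. The mean of the primate diets differed from chow by 0.08 ± 0.18 (95% interval -0.29 to 0.46, adjusted p = 0.955), and by -0.03 without Chow 3.

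Of the mitochondrial members, Sirt3 encodes the main deacetylase of mitochondrial proteins, with targets such as SOD2, IDH2 and long-chain acyl-CoA dehydrogenase. It was at 40.6, 35.0, 26.3 and 34.8 CPM on chow, 11.7, 32, 28.6 and 44.8 on NIA, 23.4, 33.4, 28.8 and 29.4 on UW, and 26.0, 32.7, 35.6 and 33.1 on mNIA. The NIA group held both the lowest and the highest of the 16 values, and the 28 counts of NIA 1 give a counting interval of 7.8 to 17 CPM, below every other library. The mean of the primate diets differed from chow by -0.20 ± 0.21 (95% interval -0.64 to 0.25, adjusted p = 0.938). NIA differed from chow by -0.24 ± 0.27, and by 0.05 without NIA 1.

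Sirt4 encodes an enzyme known to restrain glutamate dehydrogenase and fatty acid oxidation. Its levels were the steadiest of the family, at 11.2 ± 1.81 CPM with a coefficient of variation of 16.2%, and its dispersion stood at the 3.77 percentile of tested genes. Chow libraries lay between 9.95 and 14.9 CPM, NIA between 8.53 and 14.4, UW between 9.11 and 11.8, and mNIA between 9.88 and 13.4. Its difference from chow over the primate diets was -0.09 ± 0.16 (95% interval -0.43 to 0.25, adjusted p = 0.948).

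Sirt5 encodes the enzyme that removes succinyl, malonyl and glutaryl groups. It was at 38.3, 39.0, 19.4 and 36.7 CPM on chow, 36.5, 27.1, 30.8 and 38.4 on NIA, 24.1, 35.7, 35.0 and 27.8 on UW, and 28.5, 24.4, 39.5 and 36.5 on mNIA. The lowest of the 16 values was in Chow 3, the library with the highest Sirt7, and the diets overlapped. The primate diets differed from chow by -0.07 ± 0.19 (95% interval -0.46 to 0.33, adjusted p = 0.967).

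The balance between compartments moved by library. The log2 ratio of the summed CPM of Sirt3, Sirt4 and Sirt5 to that of Sirt1, Sirt6 and Sirt7 was 1.40, 1.36, -0.11 and 1.37 in Chow 1 to 4. It was 1.05, 0.66, 0.85 and 1.58 on NIA, 0.78, 1.58, 1.11 and 1.10 on UW, and 1.06, 1.02, 1.37 and 1.05 on mNIA. By these sums, which are not divided by length, Chow 3 was the 1 library with the nuclear members above the mitochondrial ones. The sign of such a ratio depends on length, and a ratio per length was not computed. The diets overlapped.

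**Figure D4:**
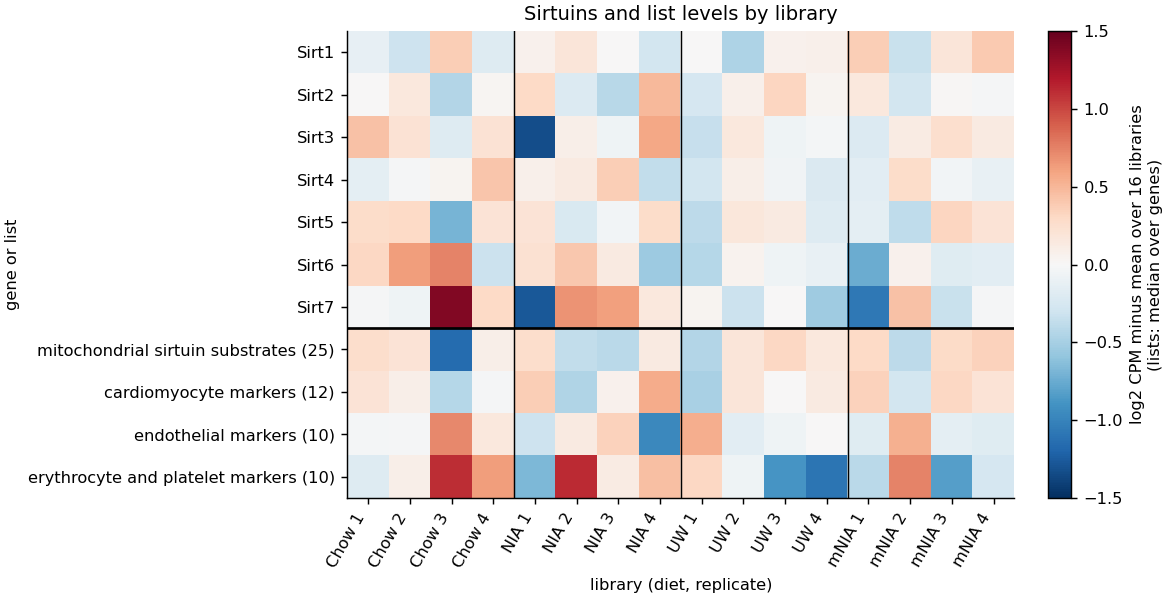
Log2 CPM minus the mean over 16 libraries for each sirtuin (upper rows), and the median of the same over the genes of 4 lists (lower rows), with 1 column per library. Chow 3 has Sirt7 at 1.39 above its mean and the mitochondrial substrate list at -1.16, and NIA 1 has Sirt3 at -1.33 and Sirt7 at -1.27.

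Across the 16 libraries, none of the 21 pairs of sirtuins passed an adjusted permutation p of 0.05 for Pearson's r or Spearman's rho. The closest were Sirt2 with Sirt5 (r = 0.70, rho = 0.55, adjusted permutation p = 0.0554 and 0.2) and Sirt2 against Sirt7 (r = -0.65, rho = -0.62, adjusted permutation p = 0.0699 and 0.122). Sirt3 and Sirt5 had an r of 0.25 and a rho of 0.70 (adjusted permutation p = 0.62 and 0.0695), and r was 0.72 without the 2 libraries farthest from the Sirt3 median, NIA 1 and NIA 4. All values of a library share its depth and cell make-up.

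Cell markers moved with 3 members, among 42 relations tested between the sirtuins and 6 list levels, each level being the median over a list's genes of log2 CPM centred on the 16-library mean. The share of all tested genes that would pass with the same list levels was not counted. Whether these relations are unusual for a gene therefore cannot be told. Sirt2 was lower where the 10 endothelial markers were higher (r = -0.88, rho = -0.78, adjusted permutation p = 0.00084 and 0.00966). The r was -0.80 without Chow 3 and NIA 4, and -0.92 with diet means removed. The endothelial markers summed to 787 to 2850 CPM in the 16 libraries. With the cardiomyocyte markers, r was 0.75 for Sirt2 and 0.76 for Sirt5 (rho 0.65 and 0.67, adjusted permutation p for r of 0.00399 and 0.00352), and -0.65 for Sirt7 (rho -0.69, adjusted permutation p = 0.0208 and 0.0341). Sirt2 with the pericyte and smooth muscle markers gave an r of -0.72 and a rho of -0.61 (adjusted permutation p = 0.00312 and 0.0502), and an r of -0.50 without Chow 3 and NIA 4. With the 4 low-weight libraries left out, r for Sirt2 was -0.73 with the endothelial, 0.49 with the cardiomyocyte and -0.27 with the pericyte and smooth muscle markers. With the cardiomyocyte markers it was then 0.62 for Sirt5 and -0.62 for Sirt7. The cardiomyocyte level was lowest in Chow 3, NIA 2, UW 1 and mNIA 2, at -0.49 to -0.28, against -0.02 to 0.56 elsewhere. Sirt5 with the endothelial markers gave an r of -0.74 and a rho of -0.62 (adjusted permutation p = 0.00355 and 0.0502).

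Sirt7 was higher where the 10 erythrocyte and platelet markers, among them the globins Hba-a1 and Hbb-bs, were higher (r = 0.76, rho = 0.83, adjusted permutation p = 0.00312 and 0.00714). The r was 0.74 without NIA 2 and UW 4 and 0.73 with diet means removed, and these markers summed to 1180 to 7310 CPM. With the endothelial markers, Sirt7 passed by rank (rho = 0.67, adjusted permutation p = 0.0353) and not by r (0.55, adjusted permutation p = 0.094). Sirt7 also moved with the level of the NAD synthesis list (r = 0.83, rho = 0.69, adjusted permutation p = 0.00218 and 0.0341). For Sirt1, Sirt3, Sirt4 and Sirt6, no relation with these lists passed. The part of cell make-up in any diet value of Sirt2, Sirt5 or Sirt7 was not tested.

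The level of the mitochondrial sirtuins' substrate genes fell into 2 sets of libraries, 5 between -1.16 and -0.37 and 11 between 0.09 and 0.34, so no r over all 16 is given for it. Its relations with the 7 sirtuins over all 16 are counted among the 42 tested. As a description, with no test of the ranges, Sirt2 was at 62.2 to 72.8 CPM in the 5 libraries and 82.9 to 119 in the 11. Sirt5 was at 19.4 to 30.8 and 27.8 to 39.5 CPM, and Sirt7 at 11.8 to 30.4 and 4.61 to 14.2. The share of all genes that separate these 2 sets was not counted, so whether the gap for Sirt2 is unusual cannot be told. Within the 11, r was 0.71 for Sirt1 (rho 0.67, adjusted permutation p for r of 0.113 over 7 relations) and between -0.34 and 0.06 for the other 6 members. No member passed there.

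Sirt3 moved closely with Esrra, which encodes the nuclear receptor ERRα, known with PGC-1α to activate genes of mitochondrial metabolism, Sirt3 among them. Esrra was at 81.1 to 112 CPM on chow, 58.3 to 137 on NIA, 73.8 to 122 on UW and 82.7 to 108 on mNIA. Among 30 relations of Sirt1 or Sirt3 with 15 listed regulators, it gave r = 0.93 and rho = 0.91 with Sirt3 (adjusted permutation p = 0.0003 for both). The r was 0.89 without NIA 1 and UW 1, 0.94 with diet means removed and 0.87 once the 4 low-weight libraries were left out. Ctbp1 gave rho = 0.86 and r = 0.67 with Sirt3 (adjusted permutation p = 0.0003 and 0.0604). No regulator passed for Sirt1. Ppargc1a, the gene of PGC-1α, did not pass with Sirt3 and had the opposite sign (r = -0.38, rho = -0.13, adjusted permutation p = 0.411 and 0.783). No other regulator passed for Sirt3. Esrra and Ctbp1 were picked out for the text after their values were seen. Among all named genes, 84 had a rho of at least 0.8 with Sirt3, so values this high were not particular to Esrra and Ctbp1. The letters AAGGTCA were not in the windows of 250 bases before either RefSeq start of Sirt3. Sequence outside these windows was not searched, and a direct action of ERRα on Sirt3 was not tested.

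**Figure D5:**
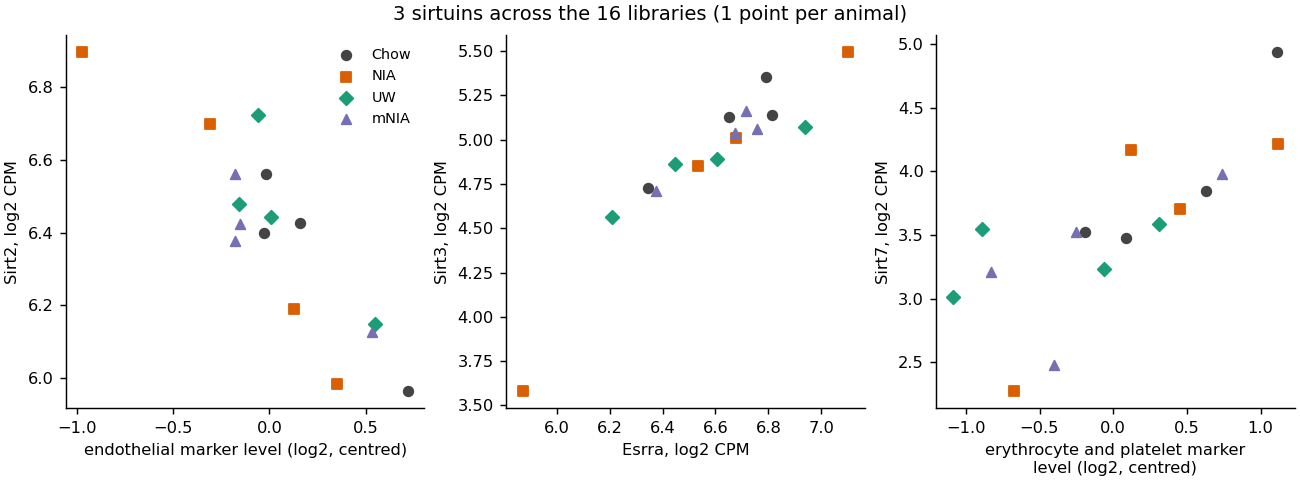
Log2 CPM of Sirt2 against the endothelial marker level, of Sirt3 against log2 CPM of Esrra, and of Sirt7 against the erythrocyte and platelet marker level, with 1 point per animal and colour and shape by diet. Pearson's r is -0.88, 0.93 and 0.76 over the 16 libraries, and the diets overlap in each panel.

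Of 16 relations with neighbouring genes, Sirt3 with Psmd13 passed by rank (rho = 0.76, r = 0.60, adjusted permutation p = 0.0142 and 0.0505), and these are the genes that share 342 exon bases. Sirt3 with Ric8a, which share 418, gave rho = -0.02 and r = 0.49. Sirt2 with Nfkbib (42 shared) gave rho = 0.29 and r = 0.34, and Sirt7 with Mafg (124 shared) rho = 0.21 and r = 0.29. None of these passed, and the part of shared reads was not tested. Sirt3 with Bet1l passed by r (0.74, adjusted permutation p = 0.0427) and not by rho (0.55, adjusted permutation p = 0.153), and r was 0.52 without NIA 1 and mNIA 2. The pairs head to head by their outermost GENCODE starts were Sirt1 with Dnajc12 and Sirt6 with Ankrd24. They gave r = -0.23 and -0.11 and rho = 0.03 and 0.31, and r turned to 0.33 and 0.45 without the 2 farthest libraries.

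By Spearman's rho over the 16 libraries, the named genes most like each member in pattern were Hsd17b13, Zfp229 and Frs2 for Sirt1 (0.84, 0.84 and 0.82), and Rsl24d1, Gstm7 and Yae1d1 for Sirt2 (0.96, 0.95 and 0.93). They were Tmem106c, Hspbp1 and Ran for Sirt3 (0.94, 0.93 and 0.93), Klk1b26, Lcat and Themis for Sirt4 (0.86, 0.81 and 0.78), and Vdac3, Dhrs1 and Fbxo44 for Sirt5 (0.93, 0.92 and 0.91). For Sirt6 they were Smarcb1, Trim7 and C4bp-ps1 (0.76, 0.75 and 0.75), and for Sirt7 H2-K2, Mapk12 and Mettl2 (0.97, 0.96 and 0.95). The number of genes with a rho of at least 0.8 was 288 for Sirt2, 274 for Sirt7, 84 for Sirt3, 60 for Sirt5, 3 for Sirt1, 2 for Sirt4 and 0 for Sirt6. The genes named are the highest of all named tested genes over 16 libraries. They were not tested, and the rho that chance alone would reach was not computed. Several had low mean levels: Hsd17b13 1.38 CPM, Klk1b26 1.11, Lcat 2.01, Themis 1.3 and C4bp-ps1 1.69. H2-K2 belongs to a family of near-identical genes, so its counts are uncertain.

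The genes around the sirtuins also had no call. Tested were 9 of 16 genes of NAD synthesis, 19 of 21 of NAD use and conversion, 15 of 15 regulators, 24 of 25 genes of nuclear and cytosolic substrates, 25 of 26 of mitochondrial substrates and 11 of 11 other histone deacetylases. In none of the 8 comparisons did a member of these lists pass, in either direction. Nampt, the rate-limiting enzyme of NAD salvage, was at 163 ± 62.9 CPM on chow, 237 ± 114 on NIA, 216 ± 66.4 on UW and 221 ± 74.1 on mNIA. Sod2, the SIRT3 substrate, was at 558 ± 199, 723 ± 259, 633 ± 141 and 674 ± 149 in the same order. Foxo3, a SIRT1 substrate, was at 9.31 ± 5.83, 5.61 ± 4.21, 20.7 ± 7.93 and 21.1 ± 12.5, with log2 differences from NIA of 1.94 ± 0.56 on UW (adjusted p = 0.169) and 1.98 ± 0.56 on mNIA (adjusted p = 0.549). The list medians of log2 fold change for the mean of the primate diets against chow lay between -0.11 and 0.14, the sirtuins' median was -0.09 and that of all genes 0.00.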

How the data were processed

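RNA from 16 ventricle samples was sequenced as strand-specific, poly-A enriched libraries of single reads, per the labels' protocols. The authors deposited 1 table of expected counts per gene (estimated counts that need not be whole), and the deposited values are not scaled, since library sums differ. BWA, DESeq2 and mm10 are named in the submitters' processing notes, without versions. The counting tool is not given in the sources used here. Values were rounded to whole counts.

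Groups came from the sample titles. Genes were filtered with filterByExpr, which kept 13381 of 17737 (75.4%), scaled by TMM, and tested with edgeR 4.0.16 under R 4.3.3 (quasi-likelihood, robust, 1 mean per diet, 2-sided), with Benjamini-Hochberg adjustment over all tested genes and a threshold of 0.05. The script was tested on simulated data. Log2 CPM used a prior count of 2. Correlations used 100000 permutations. DESeq2 1.42.0 and limma 3.58.1 were alternatives, beside other scalings, filters, a replicate block and left-out libraries. Lengths and overlaps came from GENCODE vM21 on mm10.

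Named genes were the 7 sirtuins, list members past the threshold, 20 fixed genes (those described being examples), the 3 genes most like each sirtuin, and neighbouring genes. The members and lists were chosen with earlier results of these data known. P-values measure the spread between single animals. Counting intervals cover counting error only.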

Additional observations from a re-analysis of the deposited data

Results flagged for a closer look

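Of 28 groups of 4 libraries (7 sirtuins on 4 diets), 3 held a library whose gap to its nearest neighbour was unusually wide for the range of the group, a test that chance meets in about 1 in 20 groups. Sirt7 stood at 30.4 CPM in Chow 3, against 10.9 to 14.2 in the other chow libraries. Sirt5 stood at 19.4 CPM in the same library, against 36.7 to 39.0. Sirt1 stood at 12.4 CPM in UW 2, against 17.3 to 18.3 in the other UW libraries.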

How the results depend on the processing

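No sirtuin passed in any comparison with RLE or upper-quartile scaling, DESeq2, all genes kept, only genes above 1 CPM in 4 or more libraries kept, fits of 2 diets alone, removal of any single library, or removal of Chow 3 and NIA 2 together, which was chosen after seeing the data. DESeq2 gave no adjusted p for 7 of 7 sirtuins in mNIA against NIA, for 4 in NIA against chow and for 1 in UW against NIA, so these could not pass there. Limma-voom with quality weights called 1 sirtuin, Sirt7, in mNIA against NIA and 1 in any diet difference (adjusted p = 0.0399), where 14.8% of all genes were called in each. Without the 4 libraries of low quality weight, 1 was called, again Sirt7, in UW against NIA, in mNIA against NIA and in any diet difference (adjusted p = 0.0337), where 11.8%, 23.1% and 9.97% of all genes were called, with fewer samples by construction.

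Several small differences changed sign. For NIA against chow, Sirt7 became 0.46 with limma-voom, 0.22 without Chow 3, 0.04 without NIA 1, 0.55 without the 4 libraries and 0.01 without Chow 3 and NIA 2. Sirt6 became 0.07 with limma-voom and 0.03 without the 4 libraries, and Sirt3 became 0.05 without NIA 1. Sirt2 went from 0.12 to -0.39 without the 4 libraries (unadjusted p from edgeR 0.0254, adjusted p = 0.162). Among 18 alternatives the sign changed in 2 for Sirt1, 3 for Sirt2, 3 for Sirt4 and 7 for Sirt5. For the mean of the primate diets against chow, Sirt2 became -0.08 with limma-voom, -0.03 without Chow 3, -0.14 without the 4 libraries and 0.00 without Chow 3 and NIA 2. Sirt5 became 0.01 without Chow 1 and 0.02 without Chow 2, and Sirt4 became 0.04 without Chow 4. Over the removals of single libraries, NIA against chow ranged from -0.46 to 0.05 for Sirt3 and from -0.45 to 0.22 for Sirt7. The mean against chow ranged from 0.01 to 0.26 for Sirt1, from -0.03 to 0.16 for Sirt2, from -0.16 to 0.04 for Sirt4 and from -0.25 to 0.02 for Sirt5. The cause was not tested.

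Over the pairs of neighbours in the order by longest coding transcript, the number differing in that direction was 5. It was 4 by merged exons and 6 by median transcript, and stayed at 5 without each library in turn. No pairing of the samples by the replicate numbers of the titles was seen. Over 24 pairs with the same number, deviations from the group means correlated at -0.58 to 0.61 (median -0.08, against 0.05 for other numbers). Correlations over all genes cannot exclude a weak pairing, and pairing by the numbers in the library codes was not examined. For 0 libraries was the best match in each other diet the one with its number. With the replicate number as a block, 0 sirtuins were called in any comparison.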
